A study of Macaca fascicularis with 2 samples.

Results

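Fatty acids can be built from acetyl units, a route called de novo lipogenesis, and then lengthened and desaturated. Messenger RNA of 10 genes of this route was followed in gastrocnemius, a calf muscle, of the cynomolgus macaque (Macaca fascicularis). The genes were SREBF1, ACLY, ACACA, FASN, ELOVL5, ELOVL6, SCD, SCD5, FADS1 and FADS2, and all 10 were found among the 28175 genes of the tables. They were chosen by gene symbol, with earlier results of these data known. The labels describe 2 groups with 1 library each: lean, with chow as the diet, and non-lean, with a high fat diet as the treatment. The labels used here name no age, sex or number of animals, and do not say whether tissue was pooled. With 1 library per group, body condition, diet, animal and library preparation cannot be told apart, no difference has a replicate check, and no p-value is given.

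In the route, citrate leaves the mitochondrion and ATP citrate lyase (ACLY) splits it to acetyl-CoA. Acetyl-CoA carboxylase (ACACA) makes malonyl-CoA, and fatty acid synthase (FASN) joins these units into palmitate. Elongases (ELOVL6, ELOVL5) extend the chain, stearoyl-CoA desaturases (SCD, SCD5) introduce the double bond of oleate and palmitoleate, and FADS1 and FADS2 act in the synthesis of long polyunsaturated fatty acids. SREBF1 encodes SREBP-1, a membrane-bound transcription factor that is cleaved to enter the nucleus and is known to act on many genes of the route. The route is best known from liver and adipose tissue, and skeletal muscle is regarded as a minor site.

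The lean library held 15983371 counts and the non-lean library 12732004. Levels are counts per 1000000 library counts (CPM) after trimmed mean scaling, and 1 count was worth 0.0657 CPM (lean) or 0.0748 CPM (non-lean). All 10 listed muscle fibre markers were detected, skeletal actin, ACTA1, at 80380 CPM (lean) and 60120 CPM (non-lean). The keratins KRT5, KRT14 and KRT1 were at 0 in both libraries, and albumin, ALB, had 11 lean and 0 non-lean counts. Genes with a mean of at least 1 CPM over both libraries are called tested genes, of which there were 13707. Brackets after a log2 ratio, non-lean over lean, hold its 95% counting interval, which covers counting error only.

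All 9 tested genes among the 10 lipogenic genes were lower in the non-lean library, and SCD and FASN stood furthest apart. The 9 included SREBF1, the synthase, both elongases and 3 desaturases. Together the 10 genes held 6651 lean counts, which is 0.0416% of that library (95% Clopper-Pearson interval 0.0406 to 0.0426), and 1427 non-lean counts, or 0.0112% (0.0106 to 0.0118). Of the 10, 9 were tested genes, and SCD5 was too low. The intervals of these 9 lay below 0, against 28.8% of all tested genes below 0 and 25.7% above. Of the 9, 7 were also at least 2-fold lower, against 7.16%. No lipogenic gene was at least 2-fold higher, a class that held 4.91% of tested genes. At least 4-fold lower were 3, namely SCD, FASN and ELOVL6, against 1.28% of tested genes. ELOVL6 passed the filter only through the lean library, so a difference was built into its passing. Because the 10 genes were chosen with earlier results known, these shares describe them and give no independent support. The median log2 ratio of the 9 was -1.38, and -1.37 with SCD5 included, beside -0.01 for all tested genes, whose middle 50% ran from -0.39 to 0.34.

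The 2-fold class depended on scaling at its edge. SREBF1, at 2.14-fold, was just inside it and ACACA, at 1.99-fold, just outside. When libraries were scaled by total counts, SREBF1 left the class at a log2 ratio of -0.96, and with DESeq2 size factors ACACA joined it at -1.02. Total counts also turned the balance of all tested genes, from 673 at least 2-fold higher and 982 lower (40.7% higher) to 931 and 732 (56.0% higher). That scaling moved the median of all tested genes up to 0.13, and the same 9 intervals still lay below 0.

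**Figure D1:**
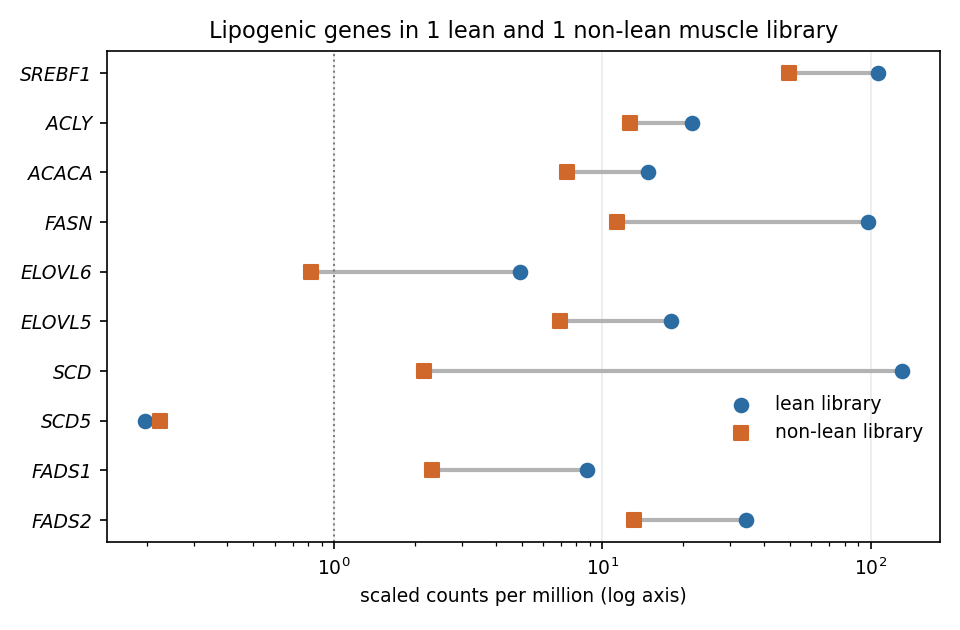
Scaled CPM (log axis) of the 10 lipogenic genes in the lean library (circles) and the non-lean library (squares), with a grey line joining both values of a gene and a dotted line at 1 CPM. SCD spans 130.8 to 2.17 CPM and SCD5 lies near 0.2 CPM in both libraries; values are not divided by transcript length, so they compare libraries within a gene and not genes with each other.

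SREBF1, the regulator, had 1614 lean and 663 non-lean counts. The levels were 106.1 and 49.6 CPM, 2.14-fold lower in the non-lean library, with a log2 ratio of -1.10 [-1.23, -0.97]. Its paralog SREBF2, better known for cholesterol synthesis, had 1712 and 566 counts and was 2.66-fold lower at -1.41 [-1.55, -1.27]. Counts of SREBF1 per 100 counts of SREBF2 were 94.3 (lean) and 117 (non-lean). Such a ratio within a library does not depend on scaling, and transcript length cancels between libraries only where a gene keeps its mix of transcripts. Here it was 1.24 times as high in the non-lean library (95% exact conditional interval 1.09 to 1.42). In the RefSeq genes of assembly T2T-MFA8v1.1, the spans of SREBF1 and RAI1 overlap, and no strand-marking step is named in the protocol. RAI1 had 296 lean and 96 non-lean counts, fewer than SREBF1 in both, and was lower too, at -1.43 [-1.79, -1.10]. Counts of SREBF1 per 100 counts of RAI1 were 545 (lean) and 691 (non-lean). The interval of this ratio, 0.98 to 1.64 times as high in the non-lean library, held 1. The part of RAI1 reads in the counts of SREBF1 was not tested.

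ACLY, which supplies cytosolic acetyl-CoA, had 327 lean and 170 non-lean counts, or 21.5 and 12.7 CPM. Its log2 ratio was -0.76 [-1.03, -0.49], the smallest difference among the 9 tested lipogenic genes. ACACA had 225 and 99 counts, 14.8 and 7.40 CPM, and a log2 ratio of -0.99 [-1.35, -0.65]. The sister enzyme ACACB, whose malonyl-CoA is known for holding back fatty acid entry into mitochondria, had 2348 and 2149 counts and a ratio of 0.06 [-0.03, 0.14]. With total counts the interval of ACACB lay above 0, at 0.20. Counts of ACACA per 100 counts of ACACB were 9.58 (lean) and 4.61 (non-lean), 2.08-fold lower (1.62 to 2.68).

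FASN, which carries out the whole chain-building cycle, stood 8.57-fold lower in the library from the high fat diet. It had 1487 lean and 152 non-lean counts, or 97.7 and 11.4 CPM, and a log2 ratio of -3.10 [-3.35, -2.86]. Of all tested genes, 35 had a lower log2 ratio than FASN. FASN stood further below than either enzyme that feeds it. Counts of FASN per 100 counts of ACACA were 661 (lean) and 153.5 (non-lean), 4.30-fold lower (3.18 to 5.80). Against ACLY they were 455 and 89.4 per 100, which is 5.08-fold lower (3.93 to 6.58). The files gave FASN as a single transcript row, so no division among rows enters its value.

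SCD, the enzyme behind oleate, was the lipogenic gene with the largest difference. It had 1991 lean and 29 non-lean counts, which is 130.8 and 2.17 CPM. The fold was 59.3 (41.9 to 90.3) and the log2 ratio -5.89 [-6.50, -5.39]. SCD was thus far higher in the lean library, and of the 13707 tested genes 5 had a lower ratio. Among the 8650 tested genes with at least 200 counts over both libraries, 2 did, and both carry only placeholder symbols. SCD was further below than FASN, at 134 (lean) and 19.1 (non-lean) counts per 100 of FASN, 7.02-fold lower (4.66 to 10.9). SCD5, a desaturase of the same class known mainly from brain and pancreas, had 3 counts in each library. That is at the floor of 3 counts, which is 0.197 (lean) and 0.224 CPM (non-lean), so a difference in SCD5 was not detectable at this depth and no fold is given.

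The front-end desaturases of polyunsaturated fatty acid synthesis were lower too. FADS2, which takes the first desaturation step from linoleate, had 523 lean and 176 non-lean counts, or 34.4 and 13.2 CPM. Its log2 ratio was -1.38 [-1.64, -1.14], 2.61-fold lower. FADS1, which acts later in that pathway, had 133 and 31 counts, 8.74 and 2.32 CPM, and a ratio of -1.90 [-2.53, -1.34], 3.72-fold lower. The ratio of FADS1 to FADS2 counts was 25.4 per 100 (lean) and 17.6 per 100 (non-lean), and its interval (0.93 to 2.29-fold lower) held 1, so these 2 genes were not told apart at this depth. In the reference table the spans of FADS1 and FADS2 overlap. The protocol names no strand-marking step, so it is not known whether reads from the overlap could be assigned by strand. FADS3, which lies next to FADS2 in that table, had 276 and 251 counts and a ratio of 0.05 [-0.20, 0.30]. Counts of FADS2 per 100 counts of FADS3 were 189.5 and 70.1, 0.37 times as high in the non-lean library (0.29 to 0.47).

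Both elongases were lower in the non-lean library. ELOVL6, which extends palmitate, had 75 lean and 11 non-lean counts, or 4.93 and 0.823 CPM, a log2 ratio of -2.53 [-3.65, -1.66]. ELOVL5, which extends polyunsaturated chains, had 273 and 93 counts, 17.9 and 6.95 CPM, and a ratio of -1.36 [-1.72, -1.02]. ELOVL6 was the further below, at 27.5 counts per 100 of ELOVL5 (lean) and 11.8 (non-lean), 2.32-fold lower (1.16 to 5.06). ELOVL1, an elongase of very long saturated chains, had 171 and 174 counts and a ratio of 0.21 [-0.10, 0.53]. Its interval lay above 0 with total counts, at 0.35. ELOVL5 had 160 counts per 100 of ELOVL1 (lean) and 53.5 (non-lean), 2.98-fold lower (2.15 to 4.15).

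By role, the summed level of the 4 desaturases was 174 (lean) and 17.9 CPM (non-lean), 9.74-fold lower, most of it SCD. The 3 enzymes of synthesis summed to 134.0 and 31.5 CPM, 4.26-fold lower, and both elongases to 22.9 and 7.78 CPM, 2.94-fold lower. Over all 10 genes the sums were 437 and 107 CPM, 4.10-fold lower. Without SCD and FASN, which were left out after their values were seen, the other 8 genes summed to 209 and 93.2 CPM, 2.24-fold lower.

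**Figure D2:**
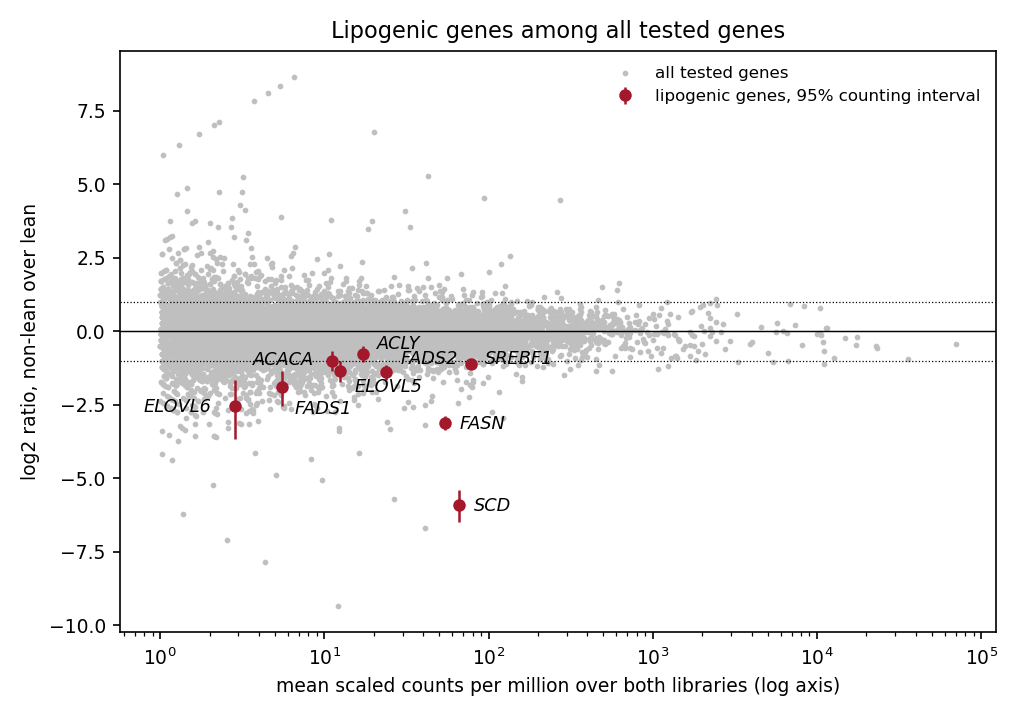
Log2 ratio (non-lean over lean) against mean scaled CPM over both libraries (log axis), with all 13707 tested genes in grey and the 9 tested lipogenic genes in red with 95% counting intervals; dotted lines mark 2-fold. SCD lies at -5.89 and FASN at -3.10, and the other 7 lie between -2.53 and -0.76.

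The division of estimated counts among transcript rows differed between the libraries for SCD. In the lean library the row XM_015456547.1 held 1064.97 estimated counts, XM_005566190.1 held 816.07 and XM_015456548.1 held 110.35. In the non-lean library the first of these held 4.03, the second 24.64 and the third 0. The leading row therefore changed, from XM_015456547.1 with 53.5% of SCD in the lean library to XM_005566190.1 with 85.9% in the non-lean library. Each of the 3 rows was far lower in the non-lean library, by 29.1-fold for XM_005566190.1. The shares of the non-lean library rest on 28.67 estimated counts, and because the division is itself an estimate they carry no counting interval.

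SREBF1 had 6 rows, of which 5 were above 0 in both libraries, with the same row leading in each. XM_015437724.1 held 910.3 lean estimated counts (56.4% of the gene) and 455.01 non-lean (68.6%), 1.76-fold lower in scaled level. XM_005583036.2 held 338.94 (21.0%) and 49.6 (7.48%), 6.01-fold lower, so the rows of SREBF1 did not differ by 1 common fold. The sources used here do not say which of these rows carries which first exon, so they are not assigned to the known SREBP-1 isoforms.

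Some rows of the other genes exchanged places outright. For ACLY, 4 rows shared the 326.99 estimated counts of the lean library, led by XM_005584204.2 with 141.66, and all 4 were at 0 in the non-lean library. Another row, XM_005584206.2, held all 170 counts there and 0 in the lean library. For ELOVL6, XM_005555689.2 held 57.88 of 75 lean estimated counts and 0 in the non-lean library, where XM_015450755.1 held all 11. ACACA was led by XM_005583936.2 in both libraries, with 186.85 and 48.6, but XM_005583932.2 held 45.16 in the non-lean library and 0 in the lean library. ELOVL5 was led by XM_015449311.1 in both, with 236.11 and 85.53. FASN, FADS1, FADS2 and SCD5 had 1 row each. Gene sums do not depend on how reads are divided among the rows of a gene, and the differences above were taken on those sums.

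**Figure D3:**
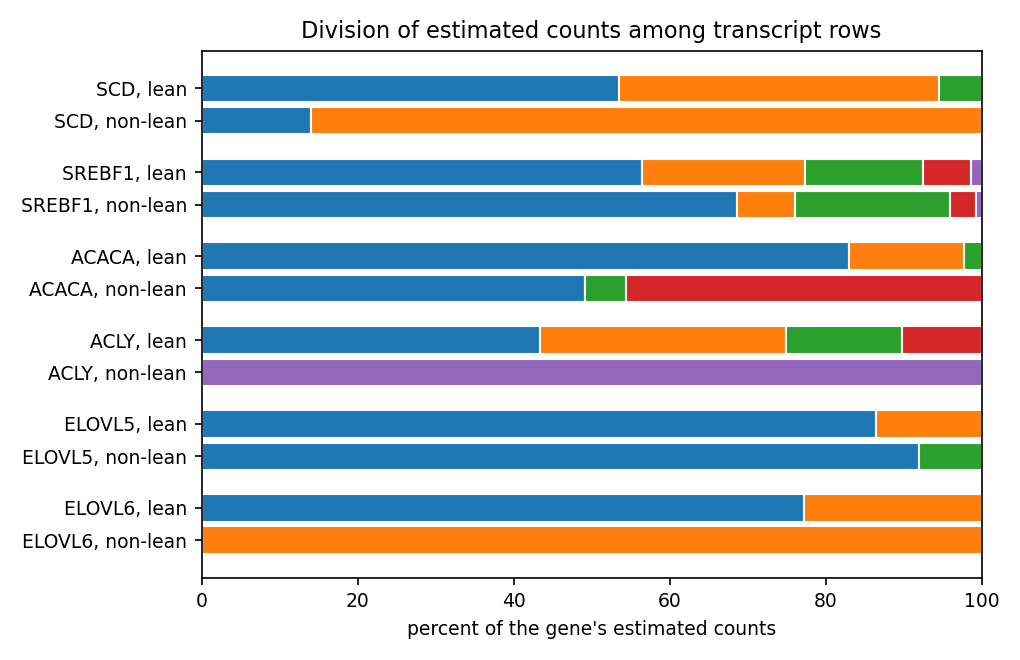
Percent of each gene's estimated counts in its transcript rows for the 6 lipogenic genes with more than 1 row, lean above non-lean; each colour is 1 row, the same row in both bars of a gene. SREBF1 and ELOVL5 keep their leading row, while ACLY moves wholly to a row at 0 in the lean library.

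Around the route, genes that govern SREBP cleavage and known SREBP targets were lower or within counting error under the main scaling. Of 13 tested genes of this list, 8 intervals lay below 0 and none above, with a median of -0.41, and 4 were at least 2-fold lower. INSIG1, which retains the SREBP complex in the endoplasmic reticulum, had 89 lean and 11 non-lean counts and a ratio of -2.77 [-3.88, -1.92]. SREBF2 had the most counts. SCAP, the escort of SREBP, had 468 and 427 counts and a ratio of 0.05 [-0.14, 0.25]. INSIG2 was at 0.06 [-0.27, 0.40] with 159 and 146 counts. With total counts 5 intervals of the list lay below 0 and 2 above, those of SCAP and the ubiquitin ligase gene FBXW7. INSIG1 and SQLE, each under 1 CPM in the non-lean library, passed the filter through the lean library alone.

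Other transcription factors and cofactors of lipogenesis went both ways. Of 18 tested, 8 intervals lay below 0 and 3 above, with a median of -0.20, and 2 were at least 2-fold lower. Scaling by total counts put 7 below 0 and 6 above, with a median of -0.06, and 1 gene became at least 2-fold higher. THRSP, a gene known to be tied to lipogenesis, was lowest, with 225 lean and 86 non-lean counts and a ratio of -1.20 [-1.58, -0.84]. RXRA, the partner of nuclear receptors such as the liver X receptors, had 4185 and 1629 counts and a ratio of -1.18 [-1.26, -1.09]. MLXIPL, which encodes the glucose-responsive factor ChREBP, had the highest ratio, 0.88 [0.65, 1.11], with 250 and 404 counts. ChREBP is known as a partner of SREBP-1 in switching on lipogenic genes, and in these libraries MLXIPL and SREBF1 stood on opposite sides of 0. The liver X receptor genes NR1H2 and NR1H3 were at 0.02 [-0.08, 0.12] and -0.31 [-0.79, 0.15]. With total counts the interval of NR1H2 lay above 0, at 0.16. MID1IP1, with the most counts of the list, was at -0.12 [-0.19, -0.06], a sign that turned to 0.02 with total counts.

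Genes that supply substrate and reducing power lay on both sides of 0. Of 16 tested, 7 intervals lay below 0 and 4 above, with a median of -0.08. With total counts 4 lay below 0 and 5 above, and the median was 0.06. SLC25A1, the carrier that exports citrate for ACLY, was 2.79-fold higher in the non-lean library, with 295 and 723 counts and a ratio of 1.48 [1.28, 1.68]. TKT, a transketolase of the pentose phosphate pathway, was lowest, at -1.32 [-1.66, -1.01] with 303 and 106 counts. Malic enzyme ME1, a source of NADPH for lipogenesis, had 653 and 574 counts and a ratio of 0.00 [-0.16, 0.16]. IDH2, with the most counts, was at -0.10 [-0.14, -0.05], and at 0.04 with total counts.

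Among genes of malonyl-CoA control and mitochondrial fatty acid synthesis, 5 of 14 tested intervals lay above 0 and 4 below, with a median of 0.05. With total counts 8 lay above 0 and 3 below. OXSM, the synthase of the mitochondrial route, was highest at 0.64 [0.35, 0.95] with 160 and 220 counts. Malonyl-CoA decarboxylase, MLYCD, was at 0.53 [0.24, 0.83] with 176 and 224 counts. PRKAB2, a subunit of the AMP-activated kinase that inhibits both carboxylases, was lowest at -1.13 [-1.22, -1.04] with 3205 and 1287 counts, and PRKAG3, a muscle subunit of the same kinase, had the most counts and was at 0.05 [0.01, 0.09], an interval that held 0 with DESeq2 size factors. The ratio of cytosolic FASN was on the other side of 0 from OXSM. It was on the same side as MECR of this list, at -0.45 [-0.80, -0.11] with 181 and 116 counts.

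Remaining genes of elongation and desaturation had a median of 0.07, with 3 of 14 tested intervals above 0 and 4 below. With total counts 6 lay above 0 and 2 below, with a median of 0.21. CYB5A, an electron donor of desaturases, was highest at 0.49 [0.26, 0.73] with 281 and 348 counts. HACD4, a dehydratase of the elongation cycle, was lowest at -1.07 [-2.27, -0.05] with 27 and 11 counts, an interval that held 0 with total counts. CYB5R1, with the most counts, was at 0.22 [0.15, 0.29] with 3129 and 3199 counts. TECR, the reductase that ends each elongation cycle, had 2806 and 2652 counts and was at 0.10 [0.03, 0.18], an interval that held 0 with DESeq2 size factors. HACD4, the only gene of the 14 at least 2-fold lower, passed the filter through the lean library alone, and with total counts none was; none was at least 2-fold higher under either scaling.

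Genes that activate fatty acids and build or hold triglyceride had 7 of 14 tested intervals below 0 and 4 above, with a median of -0.27. Scaling by total counts put 6 below 0 and 5 above, with a median of -0.13. DGAT2, a final enzyme of triglyceride synthesis known to work with newly made fatty acids, had 457 lean and 112 non-lean counts and was 3.57-fold lower at -1.84 [-2.15, -1.54]. Its counterpart DGAT1 had 331 and 267 counts and a ratio of -0.12 [-0.36, 0.11]. PLIN5, a lipid droplet coat protein of oxidative tissue, was highest at 1.29 [0.80, 1.81] with 50 and 108 counts. PLIN1, the coat protein of adipocyte droplets, was lowest at -2.64 [-3.36, -2.03] with 166 and 23 counts. LPIN1, a phosphatidate phosphatase and the gene with the most counts, was at 0.94 [0.83, 1.05]. Over all 6 lists, 89 genes were tested under the main scaling, with a median of -0.12. Of these, 12 (13.5%, against 7.16% of all tested genes) were at least 2-fold lower and 2 (2.25%, against 4.91%) at least 2-fold higher. These shares depended on scaling. By total counts the list of fatty acid activation and use alone had 2 genes at least 2-fold higher and 2 at least 2-fold lower.

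**Figure D4:**
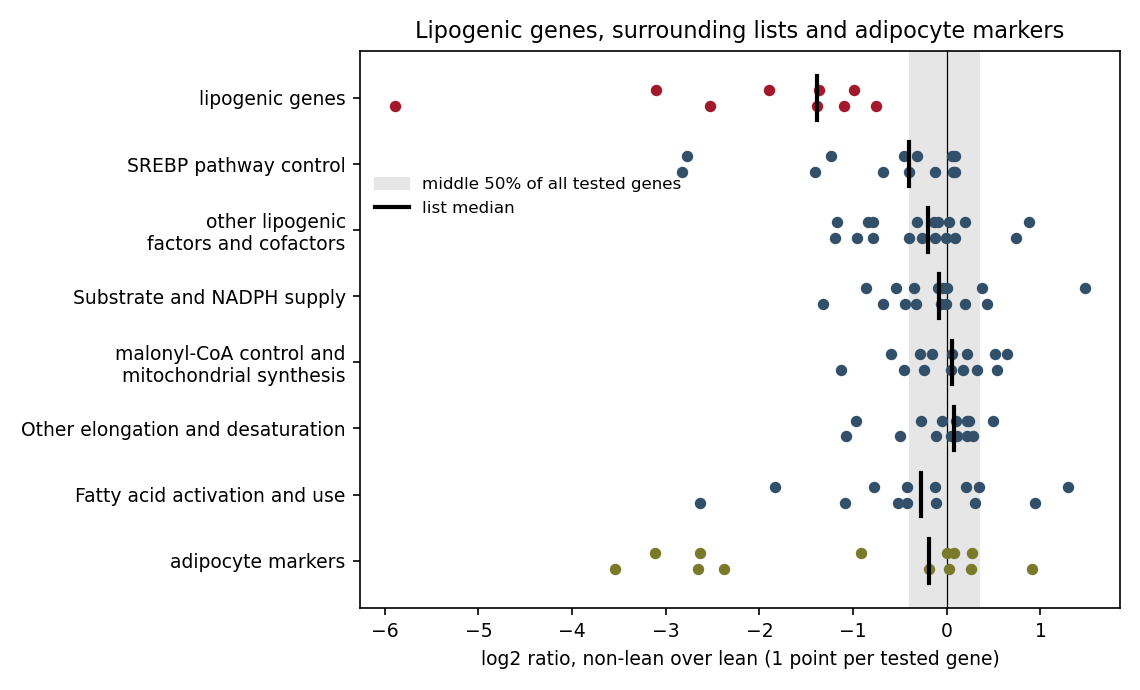
Log2 ratio (non-lean over lean) for each tested gene (1 point each) of the lipogenic set, 6 surrounding lists and the adipocyte markers, with the list median as a black bar and the middle 50% of all tested genes shaded (-0.39 to 0.34). The lipogenic median of -1.38 lies outside the shaded range, and the adipocyte markers fall into 5 genes below -2 and 8 genes between -0.92 and 0.91.

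Markers of adipocytes, a cell type known for high SCD and FASN, were split. Of 17 listed markers 13 were tested, with 7 intervals below 0 and 4 above and a median of -0.19, and 5 were at least 2-fold lower. Those 5 were ADIPOQ, TRARG1, CIDEC, PLIN1 and CIDEA, and all but PLIN1 were under 1 CPM in the non-lean library and passed the filter through the lean library alone. ADIPOQ, the adipocyte hormone adiponectin, had 46 lean and 3 non-lean counts, a ratio of -3.55 [-6.08, -2.11]. The hormone gene LEP, which was not a tested gene, had 14 and 2 counts, with a ratio of -2.35 [-5.80, -0.50]. Its non-lean count is under the floor of 3 counts. CIDEC was at -2.65 [-3.66, -1.86] with 96 and 13 counts. Of the others, LPL was at -0.92, GPD1, with the most counts, at 0.03 [-0.02, 0.07], CFD at 0.00 [-0.10, 0.11] and AQP7 highest at 0.91 [0.50, 1.33]. Summed over all 17, the markers were at 1644 (lean) and 1709 CPM (non-lean), and none was at 0 in either. Most of that sum was GPD1 (607.5 lean and 618.9 CPM non-lean), PNPLA2 (404.7 and 489.4) and PLIN4 (358.0 and 378.9). The sum therefore hardly reflects the 5 lower markers, of which PLIN1, the highest, was at 10.9 and 1.72 CPM. With total counts 6 of the 13 intervals lay below 0 and 6 above, CFD and GPD1 among the latter. In bulk muscle, fewer cells of a type and less RNA per cell cannot be told apart.

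SCD and FASN were set within each library against PLIN1 and ADIPOQ, both among the 5 adipocyte markers at least 2-fold lower. The other tested markers, from LPL at -0.92 to AQP7 at 0.91, were not used in this way. These ratios therefore do not stand for the whole marker list. FASN had 896 counts per 100 of PLIN1 (lean) and 661 (non-lean), and the interval of this ratio (0.81 to 2.18-fold lower) held 1. SCD had 1199 and 126 counts per 100 of PLIN1, 9.49-fold lower (5.12 to 17.4). Against ADIPOQ, with 3 counts in the non-lean library, the interval held 1 for SCD (0.84 to 15.2-fold lower) and for FASN (0.13 to 2.02-fold lower). So FASN was not told apart from PLIN1 at this depth, while SCD was further below than PLIN1. The part of adipocyte RNA in the lower SCD and FASN was not tested.

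Macrophage and fibroblast markers were mostly lower beside the lipogenic genes. Of 10 tested macrophage markers 9 intervals lay below 0, with a median of -1.70, from LYVE1 at -2.50 to MRC1 at -0.50 [-1.08, 0.06]. CSF1R was at -1.49. Their summed level over the 11 listed was 132 (lean) and 38.7 CPM (non-lean). All 8 fibroblast markers were tested, 7 with intervals below 0 and a median of -1.66, and the sum was 1089 and 490 CPM. FBN1 was lowest at -2.23 and DPT highest at -0.14 [-0.28, 0.01], and DCN, with the most counts, was at -0.89. Schwann cell and nerve markers summed to 103.5 and 54.5 CPM, with 2 of 5 tested intervals below 0, a median of -0.53 and MBP, the lowest, at -1.12. Muscle fibre markers had a median of -0.20, with 8 of 10 intervals below 0, from MYH1 at -0.93 to TNNT1 at 1.11. With total counts 6 lay below 0 and 4 above, as MYH2 and DES changed sides, and reads shared by the near-identical myosin genes are divided by estimation. Of the liver and skin markers only SERPINA1, at -0.91 [-1.82, -0.09], and KRT10, at 0.60 [0.31, 0.90], were tested genes. The interval of SERPINA1 held 0 with total counts. The part of these cell types in the lower lipogenic genes was not tested.

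The tested genes most like SCD in these libraries, taken as the 5 named genes of at least 200 summed counts with the nearest log2 ratio, were ALDOC, SOCS3, CASQ2, TMEM74B and MICAL2. This likeness rests on 2 libraries. ALDOC, an aldolase of glycolysis, was nearest, with 472 lean and 23 non-lean counts and a ratio of -4.14 [-4.84, -3.57]. The other 4 lay between -3.41 and -3.19. SOCS3, an inhibitor of cytokine signalling, had 343 and 28 counts, CASQ2, a calcium buffer of the sarcoplasmic reticulum, 697 and 61, TMEM74B 341 and 30, and MICAL2, an enzyme that oxidises actin, 1125 and 108. The nearest of the 5 was still 1.75 log2 units above SCD, so no named gene of this depth matched the difference of SCD.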

How the data were processed

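RNA of 2 gastrocnemius libraries, 1 lean and 1 non-lean, was compared. Per the labels' protocols, polyadenylated RNA was copied from random hexamers and read on a BGISEQ-500 instrument, with single-end as well as paired-end reads named. The authors deposited expected counts, which are estimates and may have decimals, for 76183 RefSeq transcript rows per library. The submitters' processing notes name RSEM 1.3.3, STAR 2.7.8a and Trim Galore 0.6.6, without roles. Genome build, annotation and filters were not given in the sources used here.

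Rows were summed by gene, then rounded. The 24 symbols that had become dates were separated by transcript accession, and list members absent by symbol were looked up by NCBI gene number or transcript in a RefSeq gene table (T2T-MFA8v1.1), used for names and overlaps only. Of the 97 genes of the pathway lists, 95 were matched, and ACSL5 and PLIN2 are not analysed here. Gene sequences and transcript lengths were not used here, so levels are not compared between genes.

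Scaling used the trimmed mean of M-values (edgeR 4.0.16, R 4.3.3; factors 0.952 lean, 1.05 non-lean). Log2 ratios carry a prior count of 0.5 per library. Their 95% intervals are exact Clopper-Pearson intervals of the split of the summed count, and ratios within a library have exact conditional intervals (scipy 1.17.1, Python 3.11.15). Reads copied by PCR are not independent molecules, and the protocol names no molecular identifiers, so the intervals and the floor of 3 counts cover counting error only. A gene was at least 2-fold apart only where its interval also excluded 0. The computation was tested on simulated counts. Alternatives were DESeq2 1.42.0 size factors, total counts, upper quartile scaling, another prior count, unrounded sums, other filters and other folds.

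The lipogenic genes and the lists were chosen with earlier results of these data known. All 10 genes are described, and each list contributes its lowest, highest and most counted tested gene, with the 5 genes nearest to SCD. Some genes of the lists are not reported here by name, although they count in their lists. Any other gene of the lists could be named, and those were picked after their values were seen, as was RAI1.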

Additional observations from a re-analysis of the deposited data

How the results depend on the processing

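The intervals of the 9 tested lipogenic genes lay below 0 under trimmed mean, DESeq2, total count and upper quartile scaling. Their median log2 ratio ran from -1.24 with total counts to -1.41 with DESeq2 size factors. Of the 50 recomputed log2 ratios of single lipogenic genes, 49 stayed within the main counting interval, and SREBF1 left it with total counts, at -0.96. The number of lipogenic genes at least 2-fold lower was 7, 8 with DESeq2 size factors and 6 with total counts or with a mean of at least 5 CPM. It was 9 at 1.5-fold and 3 at 4-fold. Over all tested genes, 1629 were higher and 2113 lower at 1.5-fold, and 111 and 176 at 4-fold. With a mean of at least 5 CPM, 231 were higher and 485 lower at 2-fold, and with no filter on low counts 1082 were higher. These counts differ by construction, through fewer or more genes and another fold. Restricting rows to at least 10 estimated counts put 100% of non-lean ELOVL5 in its leading row, since the other row held 7.47 estimated counts.

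No paired analysis was possible because each group has 1 library, and leaving out a library leaves no comparison. Depth limits SCD5 (3 counts in each library), ELOVL6 (11 in the non-lean library) and SCD in the non-lean library (29). The part of transcript length and read layout in the ratios was not tested.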
